A study of Mus musculus with 12 samples.

Results

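*Marchf6* and 7 other genes of ubiquitin ligation at the membrane of the endoplasmic reticulum (ER) were followed in mouse liver after hepatocyte deletion of *Marchf6*. The 8 genes were taken by name from the count table, *Marchf6* by its Ensembl identifier ENSMUSG00000039100 because its symbol varies between annotations. They are 8 of the 54232 genes listed and 8 of the 17509 genes with enough reads to be tested, so every one of them passed the filter on low values. The 5 E3 ligases are *Marchf6*, *Syvn1*, *Rnf139*, *Rnf145* and *Trim13*, and the 3 E2 enzymes are *Ube2j1*, *Ube2j2* and *Ube2g2*. The question was whether the mRNA of any of the other 7 genes was higher where *Marchf6* had been deleted, as a partial substitute for it.

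The livers came from male C57Bl/6J littermates aged 10 weeks, kept on chow and fasted for 4 h. All mice carried loxP-flanked *Marchf6* on each chromosome. The 6 mice called WT (*Marchf6* fl/fl AlbuminCre-) had no Cre, and the 6 mice called LKO (*Marchf6* fl/fl AlbuminCre+) expressed Cre from the albumin promoter, which is active in hepatocytes. Other cells of LKO livers therefore keep an intact gene, and mice with AlbuminCre but no floxed allele were not analysed here. Each liver gave 1 mRNA library with between 14860414 and 22111926 reads counted on genes. Levels are given as normalized CPM (CPM are the counts of a gene scaled to the size of its library, here corrected by the TMM method). The library numbers run through the WT mice first and the LKO mice after them, so genotype and library order cannot be told apart.

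ER-associated degradation (ERAD) removes misfolded and short-lived proteins from the ER. An E3 ligase in the ER membrane selects the protein, an E2 enzyme supplies the ubiquitin, the ATPase VCP pulls the marked protein into the cytosol, and the proteasome destroys it. In liver this route also sets the rate of sterol synthesis, because the enzymes HMG-CoA reductase and squalene monooxygenase are degraded by it when sterols are plentiful. MARCHF6 (also called TEB4) is the ligase of squalene monooxygenase. SYVN1 (HRD1) is the main ligase of misfolded ER proteins, RNF139 (TRC8) and RNF145 bind INSIG proteins and act on HMG-CoA reductase, and TRIM13 is a smaller membrane-anchored ligase.

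The deleted part of *Marchf6* is shown first, because the counts cover the whole gene and the deletion covers little of it. *Marchf6* lies on the minus strand of chromosome 15 of GRCm38, from 31455891 to 31531053, and the annotation holds 4 transcripts of it, of which 1 codes for protein. The floxed exon is named as exon 2 in the series' own design and partly as the third exon in the methods, so both are printed, 5′ to 3′ on the coding strand. Capitals in exons 2 and 3 mark the bases that the qPCR primers of the study match, and capitals in the last line mark the stop codon that appears where exon 1 is joined to exon 3.
exon 1, coding part (chr15:31530803-31530821): atggacaccgccgaggaag
exon 2 (chr15:31509726-31509822): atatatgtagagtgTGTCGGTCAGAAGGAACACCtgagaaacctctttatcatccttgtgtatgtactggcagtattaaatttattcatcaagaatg
exon 3 (chr15:31505685-31505758): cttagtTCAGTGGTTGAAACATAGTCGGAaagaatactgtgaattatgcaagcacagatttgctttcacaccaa
exon 1 coding part joined to the first 30 nt of exon 3: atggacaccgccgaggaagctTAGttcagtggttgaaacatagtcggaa

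By this annotation an mRNA without exon 2 would reach that stop after 7 codons, against 909 codons in the intact mRNA. Without exon 3 the stop would come after 166 codons. Without both exons the frame would be kept, since they hold 171 nt together, and 852 codons would remain. Exon 2 has 97 nt, or 1.55% of the 6260 nt of the transcript, and its loss alone would change the length by −0.02 on the log2 scale. By length alone a count over the whole gene is thus no check of the genotype, and the groups were taken from the labels. Any effect of an early stop on the amount of the mRNA is not part of this estimate and was not tested.

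**Figure D1:**
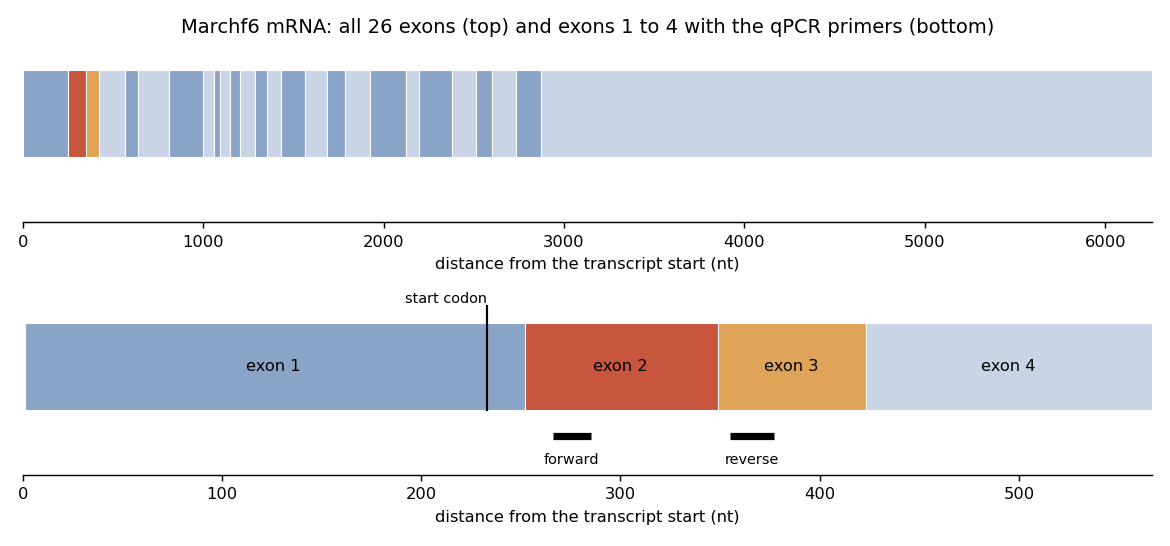
Map of the *Marchf6* mRNA drawn to scale in nt from the transcript start, with exon 2 in red and exon 3 in orange, all 26 exons above and exons 1 to 4 below. The forward and reverse qPCR primers, drawn as black bars, lie in exon 2 and exon 3, and the last exon takes 54.1% of the transcript.

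None of the 8 genes passed the test between LKO and WT livers after adjustment over all genes tested. By edgeR's quasi-likelihood test 0 of 8 had an adjusted p under 0.05, where 0.428% of all genes tested did (0.274% higher and 0.154% lower in LKO). At an unadjusted p under 0.05 there were 2 of 8, *Rnf139* and *Rnf145*, against 11.7% of all genes. With limma voom and with DESeq2 the count was also 0, against 0.485% and 2.31% of the genes to which these tests gave an adjusted p. The LKO and WT livers overlapped for all 8 genes, and among all genes tested the groups did not overlap for 1.3% (0.748% higher and 0.554% lower in LKO). The members' median log2 fold change was −0.05, with 3 genes higher and 5 lower in LKO, and that of all genes tested was 0.00016.

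**Figure D2:**
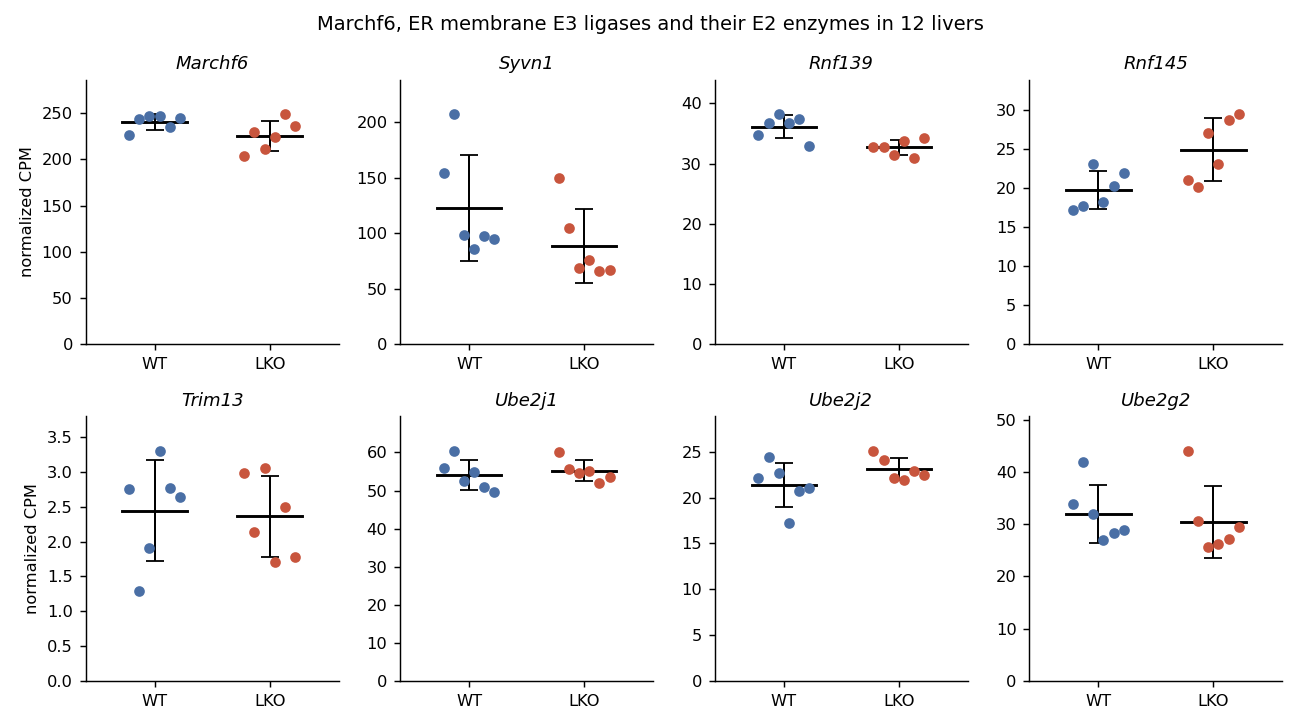
Normalized CPM of the 8 genes in each liver, with WT in blue and LKO in red, every axis starting at 0. The horizontal bar is the mean of 6 livers and the error bar is the SD. The points of the groups overlap in every panel.

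The intervals say how large a rise the data could have missed. The 95% intervals below are those of single genes, not adjusted for the number of genes. No member's interval reached a fold change of 1.5 upwards, a mark that was not planned in advance and lies just above the highest bound. The highest upper bound was that of *Rnf145*, at 1.49-fold, followed by *Trim13* at 1.35-fold, *Ube2j2* at 1.22-fold, *Ube2g2* at 1.17-fold, *Ube2j1* at 1.12-fold and *Syvn1* at 1.04-fold. The interval of *Rnf139* lay below no change, with an upper bound of 0.982-fold. The intervals of 6 of the 8 genes included no change, those other than *Rnf139* and *Rnf145*.

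**Figure D3:**
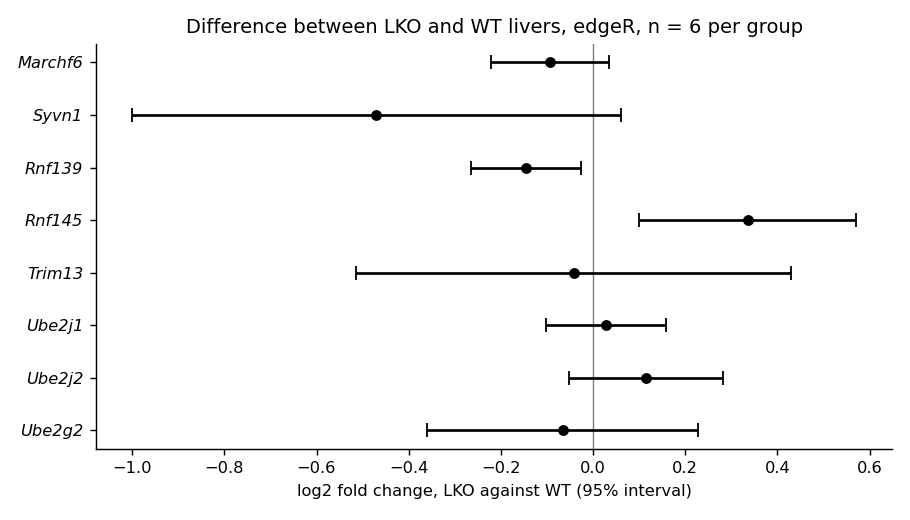
Log2 fold change of each gene in LKO against WT livers, with the 95% interval as a horizontal bar and 0 as a vertical line. *Rnf145* lies to the right of 0 and *Rnf139* to the left, and the interval of *Syvn1* is the widest, from −1.0 to 0.06.

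*Marchf6*, the deleted ligase itself, was still counted in every LKO liver. Its normalized CPM ran from 226 to 247 with a median of 244 in WT livers and from 204 to 249 with a median of 227 in LKO livers. The lowest liver was LKO replicate 1 and the highest was LKO replicate 5, so the WT values lay inside the LKO range. LKO replicates 1, 3 and 4 lay below every WT liver, and 1 of 6 LKO livers was above the WT mean. WT livers averaged 241 ± 8.36 and LKO livers 226 ± 16.5 (SD, n = 6 in each group). The log2 fold change was −0.09 with a 95% interval from −0.22 to 0.04. The unadjusted p was 0.144 and the adjusted p over all genes tested was 0.585 (edgeR). A two-sided exact permutation test of log2 CPM over all 924 assignments of livers gave p = 0.0823. The interval holds both no change and the −0.02 that the length of exon 2 would give.

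*Rnf145* encodes a sterol-responsive ER ligase whose gene is known as a target of the liver X receptors. Its normalized CPM ran from 17.1 to 23.1 with a median of 19.2 in WT livers and from 20.1 to 29.4 with a median of 25.0 in LKO livers. LKO replicates 3, 5 and 6 lay above every WT liver, and WT replicates 1, 2 and 4 lay below every LKO liver. WT livers averaged 19.7 ± 2.43 and LKO livers 24.9 ± 4.01 (SD, n = 6 in each group), and 6 of 6 LKO livers were above the WT mean. The log2 fold change was 0.34 ± 0.11 (standard error), with a 95% interval from 0.10 to 0.57 and an unadjusted p of 0.00825 (edgeR). It did not pass after adjustment over all genes (adjusted p = 0.232 with edgeR, 0.238 with limma voom and 0.139 with DESeq2). Each liver left out in turn kept the log2 fold change between 0.28 and 0.39.

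*Rnf139*, the ligase that shares INSIG partners with RNF145, had the opposite sign and a smaller difference. Its normalized CPM ran from 33.0 to 38.2 with a median of 36.8 in WT livers and from 31.0 to 34.3 with a median of 32.8 in LKO livers. WT replicate 6, at 33.0, was the WT liver that lay within the LKO range, and the other 5 lay above every LKO liver. WT livers averaged 36.1 ± 1.93 and LKO livers 32.7 ± 1.29 (SD, n = 6 in each group). This came to a log2 fold change of −0.15 ± 0.06 (standard error), with an unadjusted p of 0.0201 and an adjusted p of 0.315 (edgeR). In the annotation 26.2% of the exonic length of *Rnf139* is shared with *Gm49356* on its own strand and *Tatdn1* on the other strand, and the strand setting of the counting is not given in the sources used here, so reads of these genes could not be separated.

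*Syvn1*, the ligase of the HRD1 complex, varied most between livers. Its normalized CPM ran from 86.1 to 207 with a median of 97.5 in WT livers and from 66.2 to 150 with a median of 72.2 in LKO livers. WT replicates 2 and 1, at 207 and 154, and LKO replicate 1, at 150, stood above the other 9 livers, whose highest value was 105 in LKO replicate 2. WT livers averaged 123 ± 47.8 and LKO livers 88.6 ± 33.5 (SD, n = 6 in each group), and 4 of 6 LKO livers lay below every WT liver. The log2 fold change was −0.47 with a 95% interval from −1.0 to 0.06, an unadjusted p of 0.078 and an adjusted p of 0.489 (edgeR). Its size turned on single livers: it was −0.26 without WT replicate 2 and −0.69 without LKO replicate 1, with adjusted p between 0.224 and 0.695 over the livers left out.

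*Trim13*, whose product is anchored in the ER membrane by a single helix, was the least expressed member. Its normalized CPM ran from 1.29 to 3.30 with a median of 2.70 in WT livers and from 1.71 to 3.06 with a median of 2.32 in LKO livers, which corresponds to between 22 and 64 reads per liver. The groups overlapped almost fully. The log2 fold change was −0.04 with a 95% interval from −0.51 to 0.43 (adjusted p = 0.967, edgeR), or from 0.70-fold to 1.35-fold.

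The 3 E2 enzymes all had intervals that included no change. *Ube2j1* encodes the membrane-anchored E2 that works with SYVN1, and its normalized CPM ran from 49.6 to 60.4 with a median of 53.8 in WT livers and from 51.9 to 60.2 with a median of 54.9 in LKO livers. Its log2 fold change was 0.03 with a 95% interval from −0.10 to 0.16 (adjusted p = 0.902, edgeR). *Ube2j2* encodes the related membrane-anchored E2 that works with MARCHF6, and its normalized CPM ran from 17.2 to 24.4 with a median of 21.6 in WT livers and from 21.9 to 25.1 with a median of 22.7 in LKO livers. All 6 LKO livers were above the WT mean of 21.4 ± 2.43 (SD, n = 6), and the lowest liver of all was WT replicate 4. Its log2 fold change was 0.11 with a 95% interval from −0.05 to 0.28 (adjusted p = 0.611, edgeR).

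*Ube2g2* encodes the E2 that lacks a membrane anchor and is brought to the ER by AUP1. Its normalized CPM ran from 26.9 to 41.8 with a median of 30.4 in WT livers and from 25.6 to 44.0 with a median of 28.4 in LKO livers. LKO replicate 1 held the highest value and stood far from the other 5 LKO livers, of which the next was 30.5. The log2 fold change was −0.07 with a 95% interval from −0.36 to 0.23 (adjusted p = 0.902, edgeR). Its sign rested on single livers, since it was −0.20 without LKO replicate 1 and 0.03 without WT replicate 2. In the annotation 10.3% of its exonic length is shared with *Gm49325* and *Mir1930* on the same strand.

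Per length of annotated exon, *Marchf6* and *Syvn1* were the most abundant of the 8 mRNAs and *Trim13* the least. The level in WT livers was 26.2 ± 0.911 normalized CPM per kb for *Marchf6* and 25.3 ± 9.84 for *Syvn1* (SD, n = 6 for each gene). It was 15.3 ± 1.11 for *Ube2j1*, 13.1 ± 2.25 for *Ube2g2* and 7.07 ± 0.378 for *Rnf139* in the same unit. The lowest levels per kb were 4.84 ± 0.551 for *Ube2j2*, 2.53 ± 0.312 for *Rnf145* and 1.48 ± 0.436 for *Trim13*. Over the 12 livers the ranges of *Marchf6* and *Syvn1*, of *Syvn1* and *Ube2j1*, and of *Ube2j1* and *Ube2g2* overlapped, and from *Ube2g2* downwards no neighbours in this order overlapped. The length is that of all annotated exons together, 9.17 kb for *Marchf6*, which is longer than its coding transcript, so that its level per kb is a low estimate. The lengths of the transcripts expressed were not measured for any member. The order of close neighbours, such as *Rnf139* (lowest 6.07) and *Ube2j2* (highest 5.7), thus holds for annotated length only.

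The members also differed in how closely the livers of a group resembled each other. The SD of log2 CPM within groups was 0.083 for *Marchf6*, lower than in all but 9.3% of the 7789 genes with a mean of at least 10 normalized CPM. It was 0.069 for *Rnf139* (lower in 3.71% of these genes) and 0.089 for *Ube2j1* (lower in 12.4%). *Syvn1* was at the other end, with an SD of 0.49, and 96.7% of these genes had a lower one. *Marchf6* was an abundant and evenly expressed mRNA in these livers, and *Syvn1* an abundant and uneven one.

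The 3 highest livers of *Syvn1* were also those of 2 other members. WT replicates 1 and 2 and LKO replicate 1 were the 3 highest livers for *Syvn1*, *Ube2j1* and *Ube2g2*, so that 2 of the 7 other members had the same 3 highest livers as *Syvn1*, against 2.76% of all genes tested. Among 99 other genes of the pathway, drawn from the lists described next, 11 had these 3 livers at the top (11.1%). They include *Vcp*, the extraction ATPase, *Yod1*, a deubiquitinase that binds VCP, and *Hspa5*, the ER chaperone BiP and a standard mark of the unfolded protein response (UPR). *Hspa5* had 1170, 1520 and 1190 normalized CPM in these livers, where the other 9 ran from 485 to 1010, and its log2 fold change was −0.42 (adjusted p = 0.499, edgeR). *Marchf6* did not share this order, since LKO replicate 1 was its lowest liver. The margin was small in *Ube2j1*, where WT replicate 1, at 56, was just above LKO replicate 2, at 55.6 normalized CPM. In *Ube2g2* WT replicate 1, at 33.9, was followed by WT replicate 3, at 32. The comparison with the livers of *Syvn1* was chosen after its values were seen and is a description, and the total counts of the 3 livers, from 15010760 to 20722320, lay within the range of the rest.

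**Figure D4:**
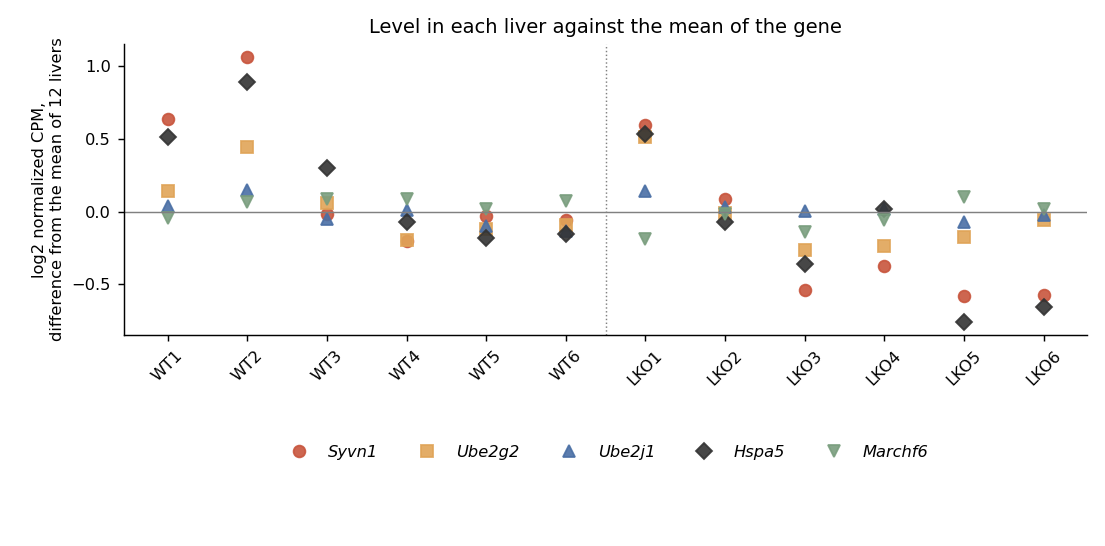
Log2 normalized CPM of *Syvn1*, *Ube2g2*, *Ube2j1*, *Hspa5* and *Marchf6* in each of the 12 livers, as the difference from the mean of the gene over all livers, with WT left and LKO right of the dotted line. *Syvn1*, *Ube2g2*, *Ube2j1* and *Hspa5* are highest in WT1, WT2 and LKO1, by a small margin for *Ube2j1*, and *Marchf6* is lowest in LKO1.

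A promoter sequence is present in both *Syvn1* and *Hspa5*. These genes were chosen for display after their values were seen, and a link of the sequence to their high livers was not tested. The ER stress response element (ERSE), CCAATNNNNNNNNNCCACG, through which the UPR factor ATF6 acts, was searched on each strand from 250 bases before to 50 bases after each transcription start in RefSeq for GRCm38.p6. It was found in 0.119% of 32851 promoters. The matches in both genes are shown with the fixed letters in capitals, 5′ to 3′ on the strand of the gene.
Syvn1 (chr19:6046532-6046550, plus strand, 44 bases before the start): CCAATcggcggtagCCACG
Hspa5 (chr2:34772025-34772043, plus strand, 65 bases before the start): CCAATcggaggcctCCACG

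*Derl3* and *Hsp90b1*, other UPR genes, held matches too and did not have the same 3 highest livers as *Syvn1*. *Hsp90b1* held a match on each strand, 212 and 107 bases before the start. The 3 highest livers were WT replicates 1, 2 and 6 for *Hsp90b1*, and WT replicates 5 and 6 and LKO replicate 6 for *Derl3*. Both groups were ranked together, and LKO replicate 1, at 769 normalized CPM, was the highest LKO liver for *Hsp90b1*. Of the 11 pathway genes with the order of *Syvn1*, *Hspa5* was the one with an ERSE match among the promoters searched. Of the 8 members 6 had a promoter in the table, *Rnf139* and *Ube2g2* being without an entry, and *Syvn1* was the member with an ERSE. The core of the sterol response element, TCACNCCAC, was found in 1.24% of promoters and among the members in that of *Trim13*. The direct repeat bound by liver X receptors, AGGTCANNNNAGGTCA, was found in 0.0152% of promoters (5 of 32851) and in none of the members' windows. Letters this rare would hardly be met in so few windows, so their absence says nothing about control by these receptors. A match says that the letters are there and not that a factor was bound in these livers.

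The rest of the pathway was read from lists of genes by role. Of 99 genes tested besides the members, 0 had an adjusted p under 0.05 by edgeR and 0 by limma voom, 12 (12.1%, against 11.7% of all genes tested) had an unadjusted p under 0.05 by edgeR, and 5 passed with DESeq2, which called 2.31% of the genes to which it gave an adjusted p. Their median log2 fold change was −0.04. The groups did not overlap for 1 of them, against 1.3% of all genes, and this was *Bag6*, which encodes a chaperone that holds extracted membrane proteins on their way to the proteasome. It had between 106 and 114 normalized CPM in WT and between 94.8 and 105 in LKO livers, or a log2 fold change of −0.15 (adjusted p = 0.239 with edgeR, 0.0401 with DESeq2).

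**Figure D5:**
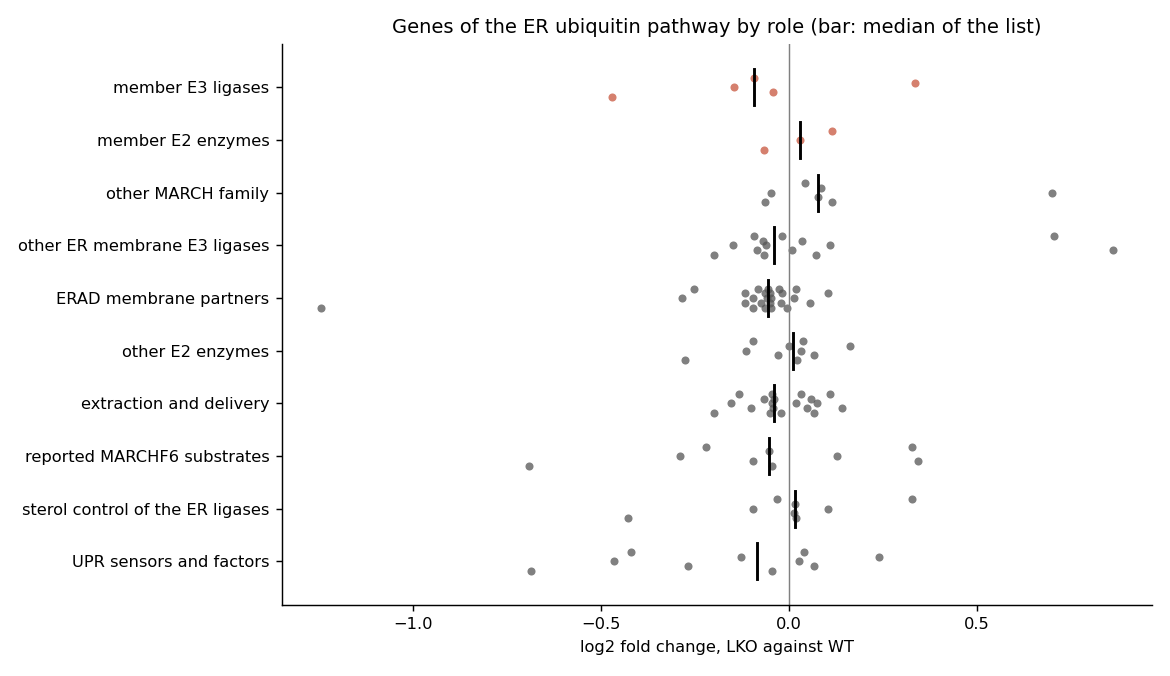
Log2 fold change in LKO against WT livers of each tested gene of the pathway, one row per role, with the 8 members in red, the other genes in grey and the median of each list as a black bar. Most genes lie within 0.3 of 0, and the medians run from −0.09 to 0.08.

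Close relatives of MARCHF6 and the other ER ligases gave no call by edgeR either. Of 10 other MARCH genes 7 were tested, 5 higher and 2 lower in LKO, with a median of 0.08 and 0 past the threshold. The highest log2 fold change was that of *March9*, at 0.70, and the lowest that of *March3*, at −0.06, each at about 1 normalized CPM or less. The value of *March9* was 0.47 without LKO replicate 3 and 1.27 without WT replicate 6, and that of *March3* ran from −0.34 without LKO replicate 5 to 0.14 without LKO replicate 1. Of 16 other ER membrane E3 ligases 14 were tested, 6 higher and 8 lower, with a median of −0.04. *Rnf180* had the highest value, 0.86 at 0.214 normalized CPM in WT, and *Rnf103* the lowest, at −0.20 (unadjusted p = 0.00966, adjusted p = 0.24, edgeR). *Rnf186*, which encodes an ER ligase of epithelia and was picked after its values were seen, had 3.31 ± 0.568 in WT and 5.37 ± 1.21 normalized CPM in LKO livers (SD, n = 6), and its log2 fold change of 0.71 passed with DESeq2 (adjusted p = 0.0104) and not with edgeR (adjusted p = 0.0898).

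The membrane partners of the ligases had mostly lower values in LKO livers, and 0 passed the threshold by edgeR and 1 with DESeq2. The 25 such genes encode adaptors, channels and lectins of ERAD. Of these, 4 were higher and 21 lower in LKO, with a median of −0.05, where that of all genes tested was 0.00016. By edgeR 2 had an unadjusted p under 0.05, against 11.7% of all genes tested. *Sel1l*, whose product holds SYVN1 in its complex, had 232 ± 20.8 in WT and 190 ± 18.6 normalized CPM in LKO livers (SD, n = 6). Its log2 fold change of −0.28 had an adjusted p of 0.149 with edgeR and 0.0329 with DESeq2, and it was picked after its values were seen. *Derl3*, which encodes a Derlin of the retrotranslocation channel, was lowest at −1.24 on 4.13 normalized CPM in WT livers (adjusted p = 0.232, edgeR), and *Insig2* was highest at 0.10. The cytosolic steps were closer to 0: of 10 other E2 enzymes 6 were higher and 4 lower with a median of 0.01, between *Ube2d2b* at −0.28 and *Ube2d1* at 0.16. Of 19 tested genes of extraction and delivery 8 were higher and 11 lower with a median of −0.04, between *Yod1* at −0.20 and *Ufd1*, which encodes a cofactor of VCP, at 0.14. Some of these small differences turned on single livers, since *Yod1* was −0.30 without LKO replicate 1 and −0.08 without WT replicate 1, *Ube2d2b* −0.47 without LKO replicate 3 and −0.10 without LKO replicate 6, *Ube2d1* 0.11 without LKO replicate 6 and 0.26 without WT replicate 6, and *Insig2* −0.04 without LKO replicate 1 and 0.19 without LKO replicate 3.

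The mRNAs of proteins reported as MARCHF6 substrates showed no common direction. Of 9 such genes 3 were higher and 6 lower in LKO livers, with a median of −0.05 and 0 past the threshold. *Msmo1*, which encodes a sterol oxidase, was lowest, with 179 ± 30.8 in WT and 111 ± 45.4 normalized CPM in LKO livers (SD, n = 6) and a log2 fold change of −0.69 (adjusted p = 0.209, edgeR). LKO replicate 1, at 194, was the LKO liver inside the WT range. Without it the log2 fold change was −0.92 with an adjusted p of 0.0274 (edgeR). The log2 fold change was −0.56 without LKO replicate 5, and the adjusted p reached 0.332 over the livers left out (edgeR). *Plin2*, the lipid droplet coat protein, was highest at 0.34, and its log2 fold change was 0.05 without LKO replicate 1. *Sqle*, the squalene monooxygenase gene, was picked for its role and had a log2 fold change of −0.22 with a 95% interval from −0.77 to 0.33 (adjusted p = 0.796, edgeR).

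The genes through which sterols act on these ligases and the UPR genes were read in the same way. Of 8 sterol control genes 5 were higher and 3 lower, with a median of 0.02 and 0 past the threshold. *Srebf2*, the factor for sterol synthesis genes, had 76.1 ± 8.22 in WT and 56.6 ± 12.2 normalized CPM in LKO livers (SD, n = 6). Its log2 fold change was −0.43 (adjusted p = 0.165, edgeR). It was −0.54 without LKO replicate 1 (adjusted p = 0.0305, edgeR) and −0.35 without LKO replicate 5. The adjusted p reached 0.307 over the livers left out (edgeR). *Srebf1*, the factor for fatty acid synthesis genes, was highest at 0.33 (adjusted p = 0.524, edgeR), and was 0.21 without LKO replicate 4. Of 10 UPR genes 4 were higher and 6 lower, with a median of −0.09. *Sdf2l1*, a BiP cofactor, was lowest, with 31.9 ± 5.64 in WT and 19.9 ± 5.39 normalized CPM in LKO livers (SD, n = 6) and a log2 fold change of −0.69 (adjusted p = 0.124 with edgeR, 0.0201 with DESeq2). *Hsp90b1*, the chaperone GRP94, picked after its values were seen, had a log2 fold change of −0.46 (adjusted p = 0.0935 with edgeR, 0.0101 with DESeq2), and *Ddit3*, the stress factor CHOP, had the highest value at 0.24.

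Markers of the liver's cell types were read beside these values, and in whole liver fewer cells of a type and less RNA per cell cannot be told apart. Of 10 Kupffer cell markers 10 were higher in LKO, 9 of them at an unadjusted p under 0.05 by edgeR, against 11.7% of all genes tested. By edgeR 0 passed the threshold and with DESeq2 3 did, and their summed level ran from 140 to 190 normalized CPM in WT and from 170 to 294 in LKO livers. Of 7 stellate cell markers 7 were higher (150 to 232 in WT, 181 to 249 in LKO), of 8 endothelial markers 7 (181 to 241 in WT, 197 to 241 in LKO) and of 5 cholangiocyte markers 3 (37.0 to 63.5 in WT, 34.1 to 129 in LKO). None of these passed by edgeR, and with DESeq2 *Lyve1* of the endothelial list did (adjusted p = 0.0127). The highest cholangiocyte sum, 129, was that of LKO replicate 1, where *Spp1* alone had 114 normalized CPM. Of 6 B cell markers 5 were higher, and the sixth, the IgM heavy chain gene *Ighm*, was the marker that passed by edgeR. It was lower in LKO, at 5.40 against 18.5 normalized CPM, with groups that did not overlap and a log2 fold change of −1.78 (adjusted p = 4.06e-06, edgeR), and the summed B cell level ran from 38.2 to 75.1 in WT and from 29.8 to 57 in LKO livers. Of 7 hepatocyte markers, 6 were lower, with a summed level from 98400 to 117000 in WT and from 89600 to 98800 in LKO livers, which makes them abundant in every liver. Most of this sum was *Alb*, at 76100 in WT and 67000 in LKO livers (log2 fold change −0.18). *Apoa1* (−0.02) and *Hnf4a* (−0.06) differed less, and *Ttr* was higher (0.09). By edgeR 3 of the 7, all lower, had an unadjusted p under 0.05, against 11.7% of all genes tested. Another listed hepatocyte marker, *Tf*, was not found under that name. None of these markers was at 0 in any liver, and their part in the values of *Rnf145* and the other members was not tested.

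The genes that followed *Marchf6* most closely from liver to liver were sought among 7788 genes with a mean of at least 10 normalized CPM, after the mean of each group was subtracted. The highest Pearson r over the 12 livers was 0.901 for *Gnptab*, followed by 0.9 for *Tpcn1*, 0.896 for *Kctd2*, 0.871 for *Man2a1* and 0.86 for *A1cf*. Spearman's rho was 0.923, 0.846, 0.867, 0.804 and 0.762 in the same order. Without LKO replicates 1 and 5, the livers farthest from the median of *Marchf6*, r was 0.835, 0.769, 0.8, 0.732 and 0.614. These are the top of a long ranking over livers that share their scaling, so they are descriptions without a test, and none of the other members was among them, *Trim13* being too low to be compared.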

How the data were processed

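Liver mRNA of 6 WT and 6 LKO mice was sequenced by the authors with 1 library per mouse (KAPA mRNA HyperPrep). Reads were checked with FastQC 0.11.15, trimmed with Trimmomatic 0.36, aligned with HISAT2 2.1.0 to GRCm38.p6 and counted with HTSeq 0.6.1, per the submitters' processing notes. The deposited values are raw counts per Ensembl gene, with no normalization or filter. Of 54232 identifiers, 54165 matched GENCODE M21, the source of symbols and coordinates.

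The filter of the study's methods was applied: 6 or more livers had to exceed 2 reads. Libraries were scaled by TMM (trimmed mean of M-values), and genotype was tested with edgeR 4.0.16 (quasi-likelihood, R 4.3.3), with Benjamini-Hochberg adjustment over 17509 genes. Standard errors are the log2 fold change over the root of F, and log2 CPM had a prior count of 0.5. The steps were tested on simulated data. The study's own test, limma voom (3.58.1), and DESeq2 1.42.0 were alternatives, with other scalings and filters, a replicate block and each liver left out. Counts carry no molecular identifiers, so depth describes counting error only.

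The members, gene lists and rules were chosen with earlier results of these data known. Named genes were all members and, per list, genes past the threshold, genes whose groups did not overlap, and the highest and lowest log2 fold change. Replicates are separate mice.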

Additional observations from a re-analysis of the deposited data

Results flagged for a closer look

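For 25 genes of the report and for the total counts, the highest and lowest liver of each group were compared with their nearest neighbour by Dixon's ratio, the gap divided by the range of the group. Of 52 groups, 4 passed the 95% critical value, where chance alone gives about 1 in 20, or 2.6. LKO replicate 1 was far above the other LKO livers in *Ube2g2*, with a ratio of 0.679, and in *Plin2*, with a ratio of 0.626. LKO replicate 6 was far below in *Ddit3* (0.63), and LKO replicate 5 was far below in *Sdf2l1* (0.688). The cause was not tested.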

How the results depend on the processing

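The count of members past the threshold was 0 under every alternative run (RLE and upper-quartile scaling, scaling without the 20 most abundant genes, no filter, at least 10 reads in every liver, filterByExpr, limma voom, DESeq2, the replicate block and each liver left out). *Marchf6* stayed between −0.12 and −0.06 over the livers left out, with adjusted p from 0.513 to 0.748 over all alternatives. The count of all genes past the threshold was 75, and it was 114 with no filter, 350 with DESeq2 (73 of the 75 among them) and between 38 and 132 with 1 liver left out, the lowest without WT replicate 5 and the highest without WT replicate 3. Another scaling moved the median of all genes by at most 0.02. With 1 liver left out the sign changed for *Ube2g2* (−0.2007 without LKO replicate 1 to 0.02511 without WT replicate 2), *Trim13* (−0.1761 to 0.05995), *March3* (−0.3374 to 0.1414) and *Insig2* (−0.03599 to 0.1876), none past the threshold by edgeR, and the cause was not tested. *March9*, *Rnf180* and *Ube2d2b* have few reads and dropped out under both stricter filters, and *March3* and *Derl3* under that of at least 10 reads.

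Same-numbered WT and LKO livers are different mice, and their deviations from the group means correlated between −0.0649 and 0.135, above 0.1 in 4 of 6 pairs, with 2 of 6 livers closest to their own number, so the numbers were not taken as pairs. With the replicate number as a block 97 genes passed, 60 of them among the 75, and 0 members, the lowest adjusted p among members being 0.062 for *Rnf145* (edgeR).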
